A study of Mus musculus with 4 samples.

Results

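Collagens, laminins and integrins are the matrix proteins and matrix receptors through which a cell attaches to its surroundings, and their genes carried 89 of the 12925 reproducible binding regions of tyrosine-phosphorylated STAT3 (pSTAT3) in mouse oligodendrocyte progenitor cells. They were chosen by name from the authors' region table, as symbols made of Col, digits, a and digits, symbols that start with Lama, Lamb or Lamc and a digit, and symbols that start with Itga or Itgb. The table names every gene with a transcript within 25 kb of a region, and the gene of the nearest transcript, so a named gene is not always the closest. In all, 49 genes were named, of 86 protein-coding genes with such names in a RefSeq gene table (57.0%), where 42.5% of all protein-coding genes were named. They were 29 of 44 collagen genes, 7 of 11 laminin genes, 11 of 26 integrin subunit genes and 2 of 5 genes for integrin-binding or integrin-like proteins.

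Laminins are trimers of an alpha, a beta and a gamma chain that build the basement membrane together with type IV collagen, and integrins are receptors of an alpha and a beta subunit that bind these proteins. In the oligodendrocyte lineage, the laminin receptor formed by the alpha6 and beta1 subunits acts in survival and in myelin formation, and loss of the laminin alpha2 chain disturbs myelin. STAT3 is a transcription factor that enters the nucleus after cytokine receptors have led to its phosphorylation, and binds DNA at a palindrome written TTCNNNGAA.

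The cells were primary cortical progenitors of C57BL/6 mice, cultured with 20 ng/ml of bFGF and 10 ng/ml of PDGF-AA, their mitogens. All of them were given the cytokine CNTF at 100 ng/ml for 15 min. The series holds 2 libraries from chromatin precipitated with an antibody to STAT3 phosphorylated at its tyrosine, and 2 input libraries, which were not analysed here. No untreated cells are among the samples, so CNTF cannot be compared with its absence. Lysed cells were pooled and the labels name no separate cultures, so differences between the libraries may be technical. Peak lists hold no marker of cell identity, and the cell type rests on the labels. On chromosomes 1 to 19, X and Y the peak lists held 42131 peaks for ChIP replicate 1 and 26537 for ChIP replicate 2. Fold enrichment is the authors' value per peak, the stacked fragments at the summit relative to local background. Each region was given the strongest overlapping peak of each library, and where a pair of fold values is given, the first is of replicate 1.

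The 89 regions included weak and strong ones. The median was 10.3-fold in replicate 1 and 7.50-fold in replicate 2, against 10.4-fold and 7.51-fold over all 12925 regions. The values ran from 5.28 to 41.8 in replicate 1 and from 3.60 to 36.9 in replicate 2. Taking the lower of both libraries, 44 of the 89 lay above the median of all regions, 7.48, and 7 of 89 (7.87%) had 20-fold or more, where 7.76% of all regions did. By family the median lower fold was 7.94 for 45 collagen regions, 6.33 for 9 laminin regions, 7.17 for 31 integrin subunit regions and 5.98 for the 4 regions of the integrin-binding or integrin-like genes. The strength of these regions was close to that of regions in general. An IDR, the irreproducible discovery rate of a region, of 0.01 or below was given to 68 of the 89 (76.4%), where 79.3% of all regions had one. With 2 libraries of 1 condition, no test over samples was possible, and these are descriptions.

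The libraries ranked the regions alike. The regions were listed because they were reproducible in both libraries, so this agreement is in part set by that selection. It does not describe the peaks outside the list. Fold enrichment was higher in replicate 1 at 85 of the 89 regions, and at 95.1% of all regions. The ratio of replicate 1 to replicate 2 had a median of 1.31 and ran from 0.824 to 2.08. Spearman's rho between the libraries was 0.897 across the 89 regions and 0.905 across all regions, as a description across regions that share their libraries. Summits of both libraries lay within 100 bp of each other at 85 regions, and 95.7% of all regions had such summits. The exceptions were 2 regions of Itga6, 1 of Itga7 and 1 of Lamc1.

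**Figure D1:**
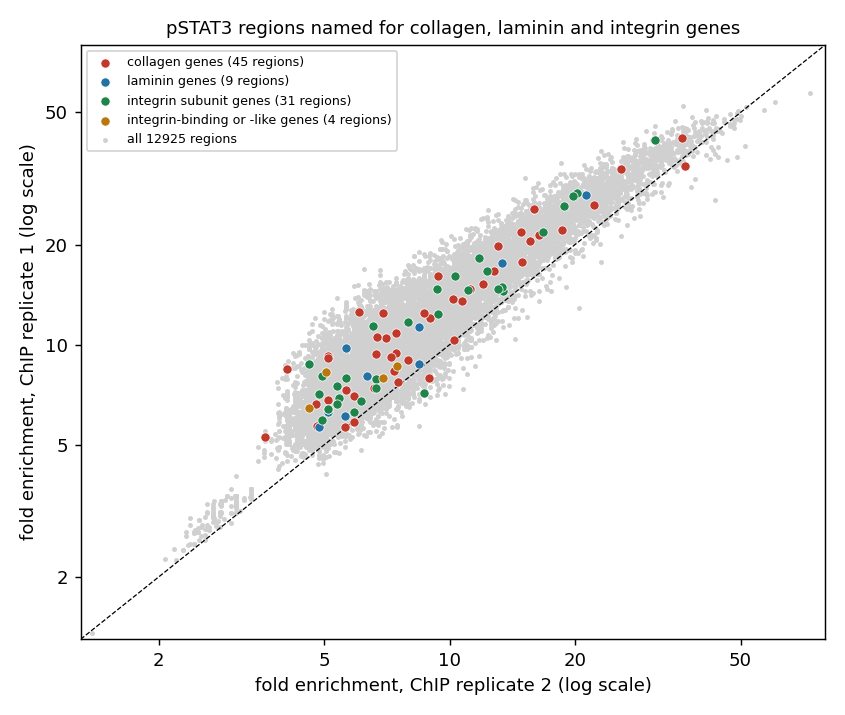
Fold enrichment in ChIP replicate 1 (vertical, log scale) against ChIP replicate 2 (horizontal, log scale) for the regions of each gene family, in colour, and for all 12925 regions, in grey; the dashed line marks equal values. The coloured points lie within the grey cloud, mostly above the line, and reach 41.8-fold in replicate 1.

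A minority of these regions sat at the promoter of the gene they name. Regions are placed by their midpoints, relative to the nearest start of an Ensembl transcript of the gene in the authors' table. Of the 89, 7 lay within 1 kb of such a start, 13 at 1 to 5 kb, 35 inside the gene but farther from a start, and 34 outside the gene at over 5 kb. Counted by gene, 6 of 86 (6.98%) had a region within 1 kb, where 12.8% of protein-coding genes did, and 15 of 86 (17.4%) had one within 5 kb, where 18.1% did. Within 25 kb the count was 37 of 86 (43.0%), where it was 34.3% of protein-coding genes. Measured from any listed start, of a member or of another gene, 21 of the 89 regions (23.6%) lay within 1 kb, where 23.9% of all regions did, and 39 (43.8%) lay within 5 kb, where 38.7% did. The families differed in the count within 5 kb, with 4 of 11 laminin genes, 6 of 44 collagen genes, 4 of 26 integrin subunit genes and 1 of 5 of the remaining genes, but each count is small and the difference was not tested.

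**Figure D2:**
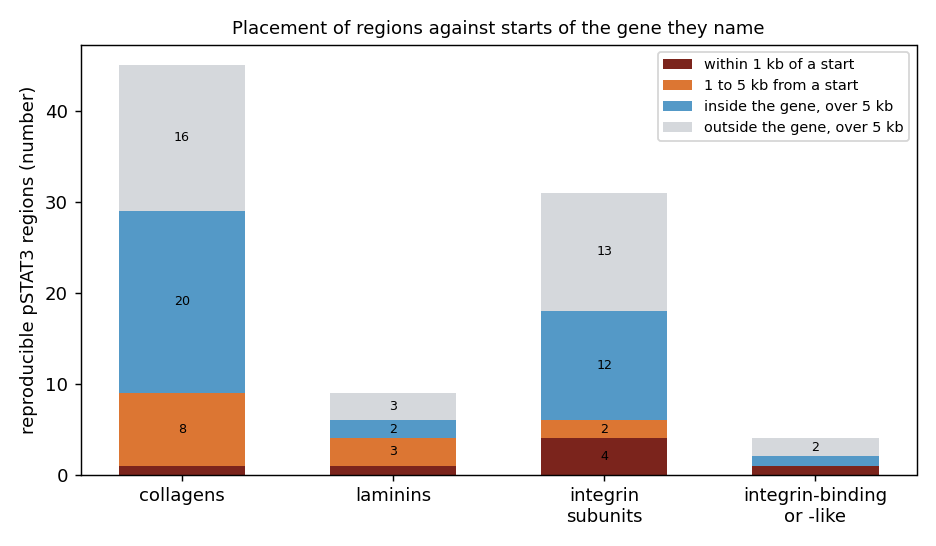
Number of reproducible regions (vertical) in each gene family, divided by where the midpoint lies relative to the gene that the region names, each region counted once. Collagen genes had 1 region within 1 kb of a start and 20 farther inside the gene, and integrin subunit genes had 4 and 12.

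Regions inside the genes were found in a larger share of these genes than of all protein-coding genes, and these genes were longer. A region midpoint lay inside 31 of the 86 genes (36.0%), where 19.6% of protein-coding genes had one. Counted by region, 49 of the 89 (55.1%) lay inside a member gene. Inside a listed transcript of any gene, neighbours included, lay 68 of the 89 (76.4%), where 57.0% of all regions did. The median gene length was 75.3 kb here and 17.2 kb over all protein-coding genes. Among genes over 100 kb, 22 of 38 (57.9%) held a region, where 59.7% of protein-coding genes of that length did. Between 30 and 100 kb the count was 6 of 29 (20.7%), where 27.5% did, and under 30 kb it was 3 of 19 (15.8%), where 10.1% did. Per Mb of gene, the 86 genes held 5.24 regions and all protein-coding genes 6.97. The part of gene length in these counts was not tested further.

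**Figure D3:**
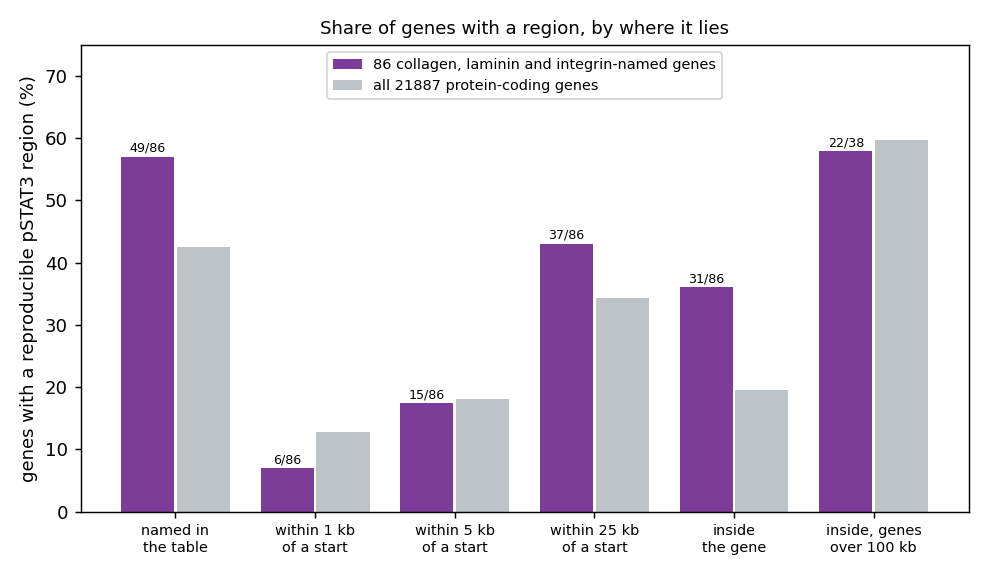
Percent of genes with a reproducible region (vertical) among the 86 collagen, laminin and integrin-named genes (purple, with counts) and among all protein-coding genes (grey), for 6 rules of placement. The purple bar is lower within 1 kb of a start and higher for regions inside the gene, and at 57.9% and 59.7% the bars are close for genes over 100 kb.

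The strongest region of the families belonged to Col16a1 (ENSMUSG00000040690), which encodes a collagen that sits on the surface of fibrils. It covered chr4:130054735-130056651 (GRCm38). Replicate 1 gave 41.8-fold enrichment from 280 stacked fragments and replicate 2 gave 36.2-fold from 173, and the region ranked 114 among all regions by the lower value. The midpoint lay 297 bp upstream of a listed start, and that start was an internal one, 8.17 kb inside the gene. The region spanned the internal start, and the summits lay 120 and 105 bp downstream of it. At the outer start of Col16a1, the 5′ end of the gene in the RefSeq table, both peak lists had a weaker peak that is not in the table of reproducible regions, at 8.10-fold and 4.37-fold. Col16a1 named 5 regions in all. The other regions inside the gene had 9.17-fold and 7.25-fold enrichment at 2.92 kb from the outer start, 7.74-fold and 7.53-fold 1.74 kb upstream of an internal start, and 8.48-fold and 4.08-fold 2.85 kb downstream of another. The fifth, of 5.67-fold and 5.61-fold, lay beyond the gene and 338 bp upstream of Pef1.

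Among laminin genes, Lama5 had the strongest region. Lama5 (ENSMUSG00000015647) encodes an alpha chain of basement membrane laminins, and its region (chr2:180227573-180228112) reached 28.3-fold and 21.2-fold with 166 and 82 fragments, 1.98 kb upstream of the start. Lamb3, a beta chain best known from skin, had 11.3-fold and 8.45-fold enrichment near a listed start inside the gene, 3.37 kb upstream of that start and 23.0 kb from the outer start. Lamc1, the gamma chain shared by most laminins, had 9.80-fold and 5.63-fold enrichment 3.61 kb downstream of an internal start. Lamb2, a beta chain of synaptic and kidney basement membranes, had 6.11-fold and 5.61-fold enrichment (chr9:108478678-108479112) 841 bp upstream of its start. Of these, the regions of Lama5 and Lamb2 were near the outer start of the gene.

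Other laminin regions lay farther from a start. Of the 3 regions that name Lamc1, another was of 8.05-fold and 6.33-fold inside the gene, 24.2 kb from its start, where the summits of the libraries lay 824 bp apart. Lama4, an alpha chain of vessel walls, had 6.30-fold and 5.12-fold enrichment inside the gene. The Lamc3 region lay beyond the gene, 75.5 kb downstream of the Lamc3 start and 277 bp upstream of Gm13442. No region was listed for Lama1, Lama2, Lama3 or Lamb1, which were looked up by name after the values were seen. Lama2 held 1 peak in each list, of 5.09-fold and 4.10-fold, over a gene of 636 kb.

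Among the laminin-binding integrin alpha subunits, 2 of 3 had a region within 5 kb of a start, where 18.1% of protein-coding genes did, and for Itga7 the nearest lay 4.05 kb away. Itga7 (ENSMUSG00000025348), the laminin-binding subunit typical of muscle, named 6 regions. The one nearest to the start (chr10:128929484-128930040) reached 28.7-fold and 20.2-fold with 163 and 79 fragments and lay 4.05 kb upstream. Next to it, 5.34 kb upstream, was a region of 21.9-fold and 16.8-fold whose summits lay 427 bp apart and which is closer to Bloc1s1, at 4.44 kb. Another, of 5.93-fold and 4.93-fold, lay 4.86 kb downstream, inside the gene. The other 3 were at starts of neighbouring genes, so 4 of the 6 were nearest to another gene. Of the 3, 41.3-fold and 31.2-fold enrichment lay 329 bp upstream of Cd63, which encodes a tetraspanin of endosomes, 11.7-fold and 7.94-fold lay 651 bp downstream of a Cd63 start, and 14.9-fold and 13.4-fold lay 51 bp downstream of Bloc1s1.

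Itga6 (ENSMUSG00000027111), the alpha6 subunit, had 3 regions, all below the median lower fold of all regions. The region chr2:71787636-71787904 had 6.41-fold and 5.12-fold enrichment 792 bp downstream of the start. Another, of 7.17-fold and 8.70-fold, lay 670 bp upstream of a listed start that is itself 41.3 kb upstream of the outer start in the RefSeq table. It was stronger in replicate 2, and the summits lay 712 bp apart. The third, of 7.52-fold and 5.38-fold, lay between these starts. Itga3, the remaining laminin-binding subunit, had no listed region.

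Collagen-binding alpha subunits had regions deep inside their genes. Itga2, a collagen receptor of platelets and epithelia, had 28.0-fold and 19.8-fold enrichment (chr13:114838371-114839509) 93.1 kb downstream of its start, and 12.3-fold and 9.37-fold at 76.2 kb. Itga1, the other widely expressed collagen receptor subunit, had 3 regions inside the gene. These had 18.2-fold and 11.8-fold enrichment at 11.5 kb, 11.4-fold and 6.55-fold at 64.4 kb, and 14.7-fold and 13.1-fold at 70.6 kb from the start. The first of them lay 289 bp upstream of Pelo, a ribosome rescue factor whose gene lies within Itga1. Itga10 and Itga11 had no listed region.

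Of the other alpha subunits, Itga9, which binds tenascin C and osteopontin, is a gene of 294 kb and named 6 regions. The strongest (chr9:118590118-118590750) had 26.1-fold and 18.9-fold enrichment 16.3 kb upstream of the start. The 4 inside the gene ran from 6.30 to 14.7-fold in replicate 1 and from 4.59 to 9.35-fold in replicate 2, all at least 141 kb from the outer start, and the last, of 14.5-fold and 13.4-fold, lay downstream of the gene. Itga2b, which forms the fibrinogen receptor of platelets, had 14.6-fold and 11.0-fold enrichment 816 bp downstream of an internal start and 3.74 kb from the outer start, and another region of 6.78-fold and 6.14-fold 17.0 kb upstream. None of the 5 leukocyte alpha subunits was named, where 42.5% of protein-coding genes were. Itgav, the alpha subunit of several progenitor integrins, was not named either, with 5 peaks in the gene in replicate 1 and 2 in replicate 2, at most 6.53-fold and 3.80-fold.

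**Figure D4:**
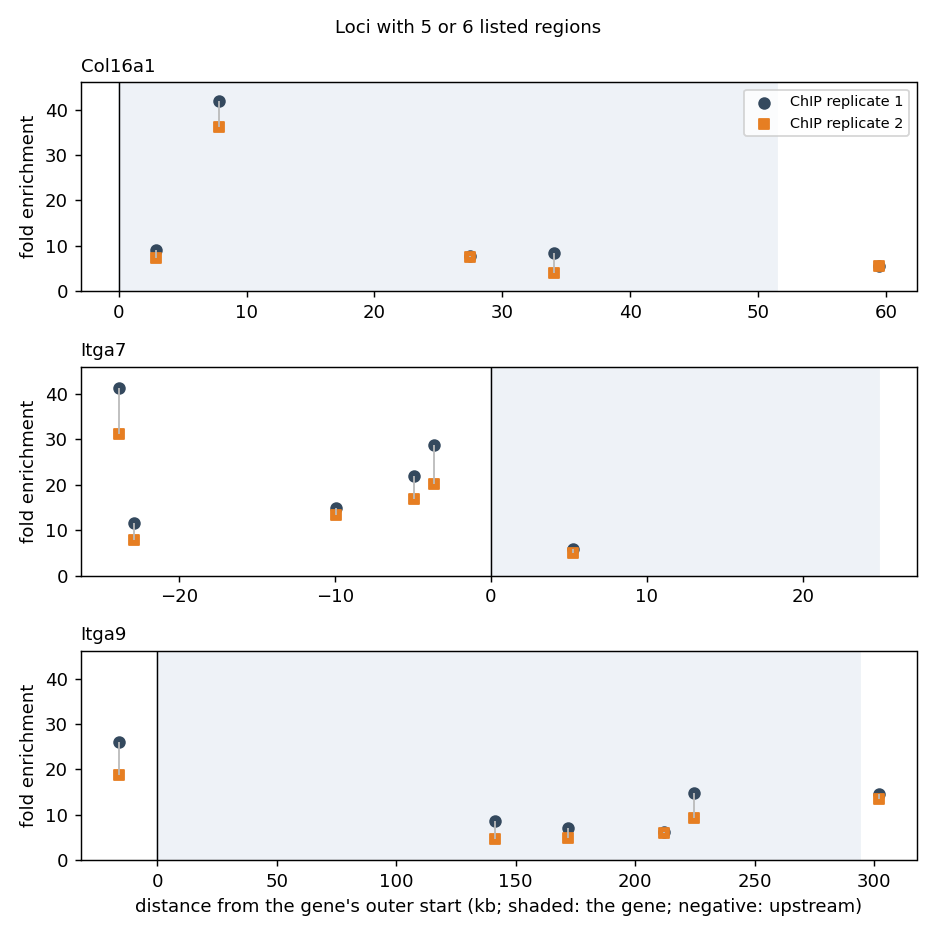
Fold enrichment (vertical) of every listed region of Col16a1, Itga7 and Itga9 in both ChIP libraries, by distance of the midpoint from the outer start of the gene (horizontal, kb; the gene is shaded). The strongest regions of Itga7 and Itga9 lie upstream of the gene, and that of Col16a1 inside it.

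Itgb1 (ENSMUSG00000025809), the beta subunit that pairs with most alpha subunits, was the only integrin subunit gene with a region across its listed start. That region (chr8:128685332-128685806) had 6.40-fold and 5.12-fold enrichment from 42 and 19 fragments, below the median of all regions in both libraries. Its midpoint lay 85 bp upstream of the start. Further regions of 6.64-fold and 5.37-fold and of 8.05-fold and 4.93-fold lay 5.56 kb upstream and beyond the 3′ end. Itgb1bp1, whose product binds the tail of the beta1 subunit, had 6.44-fold and 4.59-fold enrichment at a start it nearly shares with Cpsf3, a pre-mRNA cleavage factor transcribed the other way, and 2 regions downstream of the gene, of 8.63-fold and 7.50-fold and of 8.27-fold and 5.05-fold. Itgbl1, which encodes an integrin-like protein, had 7.94-fold and 6.91-fold deep inside the gene. The promoters of Itgb1 and Itgb1bp1 are those of the families that overlap a reproducible region, among the 62 of 86 genes with a promoter in the RefSeq table. They are shown with that of Pelo, the strongest region with both summits inside a promoter window, in 300 bases each, from 250 before to 50 after the start (RefSeq, GRCm38.p6). Capitals mark the bases from the summit of one library to that of the other.
Itgb1, chr8:128685404-128685703, plus strand: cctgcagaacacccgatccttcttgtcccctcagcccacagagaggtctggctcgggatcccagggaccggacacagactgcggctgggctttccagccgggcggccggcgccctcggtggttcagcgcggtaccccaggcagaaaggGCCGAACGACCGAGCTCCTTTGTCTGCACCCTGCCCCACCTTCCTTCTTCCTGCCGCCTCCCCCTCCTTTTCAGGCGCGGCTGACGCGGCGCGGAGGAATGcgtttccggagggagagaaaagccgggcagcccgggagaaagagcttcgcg
Itgb1bp1, chr12:21286235-21286534, minus strand: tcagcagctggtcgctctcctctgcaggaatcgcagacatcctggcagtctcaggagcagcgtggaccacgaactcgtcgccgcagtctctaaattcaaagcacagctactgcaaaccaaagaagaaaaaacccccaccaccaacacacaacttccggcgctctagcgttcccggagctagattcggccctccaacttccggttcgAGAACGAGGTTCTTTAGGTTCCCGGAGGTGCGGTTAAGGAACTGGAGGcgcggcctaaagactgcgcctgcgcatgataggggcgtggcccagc
Pelo, chr13:115090109-115090408, minus strand: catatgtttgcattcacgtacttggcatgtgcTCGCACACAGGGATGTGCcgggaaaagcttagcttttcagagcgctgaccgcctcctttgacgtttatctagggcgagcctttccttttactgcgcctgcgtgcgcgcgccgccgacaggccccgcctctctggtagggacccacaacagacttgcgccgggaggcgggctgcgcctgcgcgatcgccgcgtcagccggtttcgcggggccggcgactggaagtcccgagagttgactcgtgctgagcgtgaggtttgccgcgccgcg

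None of these 3 windows holds the palindrome TTCNNNGAA, searched on both strands. In Itgb1 the summits lay 102 and 2 bases before the start of the window's transcript, in Itgb1bp1 44 bases before and 3 after it, and in Pelo 201 and 218 before it. Over all promoter windows that overlap a region named for the families, most of them windows of neighbouring genes, 0 of 15 held it. Some of these windows overlap one another or share a region, so they are not separate cases. Among all 2488 promoter windows that overlap a reproducible region, 373 (15.0%) held it, and among all 32851 windows 8.30% did. The stricter TTCCNGGAA was in 5.63% and 1.15% of these, and in 0 of the 15. The form TTCCNNGAA, which contains it, was in 12.6% and 4.81%. A window with no match says only that these letters are not in these 300 bases, and the regions extend beyond them.

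Of the 68 promoter windows of the families, 5 (7.35%) held TTCNNNGAA, and none of those 5 overlaps a reproducible region. They are given with the palindrome in capitals and 10 bases on either side.
Itga10, chr3:96645385-96645413, plus strand: aatttgtgttTTCTTTGAAtattagctga
Itgb3bp, chr4:99829223-99829251, minus strand: cctgcaccatTTCCTTGAAcacgttcagg
Col28a1, chr6:8192703-8192731, minus strand: accctccctcTTCAGAGAAacttgttgaa
Col6a5, chr9:105960834-105960862, minus strand: ggtcgtggatTTCTGAGAAactctgcctt
Lamb2, chr9:108479644-108479672, plus strand: tcccttttagTTCCTCGAActaagctgct

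In Lamb2 the palindrome begins 542 bases beyond the end of the reproducible region, nearer the start. At Itgb3bp, an interactor of the beta3 subunit, both peak lists had a weak peak at the start, of 4.17-fold and 2.72-fold, with summits 22 and 220 bp upstream and the palindrome 83 bases upstream. Neither list had a peak within 1 kb of the outer start of Itga10, Col28a1 or Col6a5. In Col28a1 and Col6a5 the palindrome is at a start 1.09 and 1.82 kb inside the outer start, so that count does not fully cover its surroundings.

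Beta subunits other than Itgb1 lacked regions near a start. Itgb6, an epithelial subunit that binds latent TGF-beta, had 16.7-fold and 12.3-fold enrichment 7.70 kb inside the gene. Itgb5, a partner of the alphav subunit in progenitors, had 2 regions deep in the gene, of 7.43-fold and 6.65-fold and of 6.90-fold and 5.43-fold. Itgb4 was named for regions 22.2 and 19.4 kb upstream, of 16.1-fold and 10.3-fold and of 7.94-fold and 5.63-fold, that lie nearest to Sap30bpos. Itgb7 was named for 1 of 7.87-fold and 6.66-fold nearest to Rarg. Itgb2, Itgb3 and Itgb8 were not named.

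Of the fibril-associated collagen genes, 9 of 9 were named, where 42.5% of protein-coding genes were. At 5 of the 9 a region lay inside the gene, where 19.6% of protein-coding genes of any length had one. The median length of the 9 genes was 75.15 kb. The subfamily was set by hand and the count was not tested. Beside Col16a1, the regions within 5 kb of a start were those of Col9a3, with 19.8-fold and 13.1-fold enrichment 2.12 kb downstream, and Col9a1, with 16.2-fold and 9.39-fold 1.26 kb downstream of an internal start. Both genes encode chains of collagen IX, known from cartilage. A stronger region inside Col9a1, of 22.1-fold and 18.6-fold (chr1:24244789-24245344), is named for Col19a1 too, whose nearest listed start is 208 kb away. Col12a1, a collagen of tendon and other dense tissue, had 33.8-fold and 25.8-fold enrichment (chr9:79599240-79599906) 13.4 kb downstream of an internal start, and 25.6-fold and 16.0-fold 6.92 kb downstream of it. Both lie near the 3′ end, 122 and 115 kb from the outer start of a gene of 122 kb. The third Col12a1 region, of 10.3-fold and 10.2-fold, lay beyond the gene. Col22a1 had 14.7-fold and 11.2-fold and 13.7-fold and 10.2-fold, both inside the gene. The regions named for Col9a2, Col14a1 and Col20a1 lay outside the gene, nearest to Smap2, Mrpl13 and Arfgap1, at 4.81 to 6.06-fold in replicate 2.

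Fibrillar collagens were named in 5 of 11 genes, a share close to the 42.5% of all protein-coding genes. Col5a3, a chain of collagen V, had the second strongest region of the families, by the lower fold, of 34.4-fold and 36.9-fold with 258 and 156 fragments (chr9:20794041-20794680), inside the gene and 20.7 kb from its start. It was stronger in replicate 2, as were 3 others of the 89. A further region of Col5a3 had 7.43-fold and 6.58-fold enrichment 4.51 kb downstream of the start, 1 of 21.3-fold and 16.4-fold lay 22.3 kb upstream, and 1 of 9.38-fold and 6.66-fold lay beyond the gene. Col5a1 had regions 67.5 and 50.2 kb upstream, of 14.7-fold and 13.3-fold and of 10.5-fold and 6.71-fold. Col11a1 had 9.45-fold and 7.42-fold inside the gene and 7.29-fold and 5.63-fold beyond it, and Col27a1 had 5.28-fold and 3.60-fold, the lowest of the 89 in both libraries. The Col11a2 region, of 12.4-fold and 8.70-fold, lay 95 bp downstream of Rxrb. The genes of collagens I, II and III, the main fibril collagens of connective tissue and cartilage, were not named. Col1a1, Col1a2 and Col3a1 had no peak inside the gene in either list.

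Type IV collagen genes, with a median length of 138 kb, were named in 4 of 6, where 42.5% of protein-coding genes of any length were. These genes lie head to head in pairs that share a promoter region. No peak summit of either list lay within 1 kb of the outer start of Col4a1, Col4a2, Col4a3, Col4a4, Col4a5 or Col4a6. Inside the genes, Col4a4 had 26.4-fold and 22.3-fold enrichment (chr1:82476350-82477438) 110.0 kb from its start, and 9.27-fold and 5.12-fold at 42.0 kb. Col4a1 had 20.5-fold and 15.6-fold enrichment 68.4 kb from its outer start. Col4a2 had 10.5-fold and 7.04-fold, 1.09 kb downstream of an internal start, and 6.64-fold and 4.79-fold elsewhere in the gene. Col4a3 had 9.10-fold and 5.12-fold. Neither list had a peak inside Col4a5 or Col4a6, both on chromosome X.

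Among the other collagens, all 4 transmembrane genes and both multiplexin genes were named, where 42.5% of protein-coding genes of any length were. The median length was 217.6 kb for the transmembrane genes and 109.9 kb for the multiplexin genes, and these counts were not tested. Col13a1, a transmembrane collagen of the neuromuscular junction, had 15.2-fold and 12.0-fold enrichment 1.50 kb upstream of an internal start, 99.3 kb from the outer start, and 8.99-fold and 7.94-fold 8.24 kb from the outer start. Col25a1, a transmembrane collagen of neurons, had 13.5-fold and 10.7-fold, and Col23a1 had 5.84-fold and 5.89-fold, both inside the gene. A further Col23a1 region, of 8.36-fold and 7.37-fold, lay 67 bp upstream of Phykpl. Col17a1, a transmembrane collagen of skin, was named for 12.4-fold and 6.91-fold beyond its gene. Col15a1 and Col18a1, the basement membrane multiplexins, had 17.8-fold and 14.9-fold and 16.6-fold and 12.8-fold, both inside the gene. Collagen VI genes were named in 2 of 6, Col6a3, with 10.8-fold and 7.42-fold beyond the gene, and Col6a5, with 7.97-fold and 8.92-fold inside it. Network-forming genes were named in 1 of 3, Col8a2, for a region of 6.82-fold and 5.12-fold 62 bp downstream of an Adprhl2 start. Col28a1 had 21.9-fold and 14.8-fold enrichment inside the gene, and Col26a1 was named for 12.0-fold and 8.99-fold 82 bp upstream of Ift22.

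**Figure D5:**
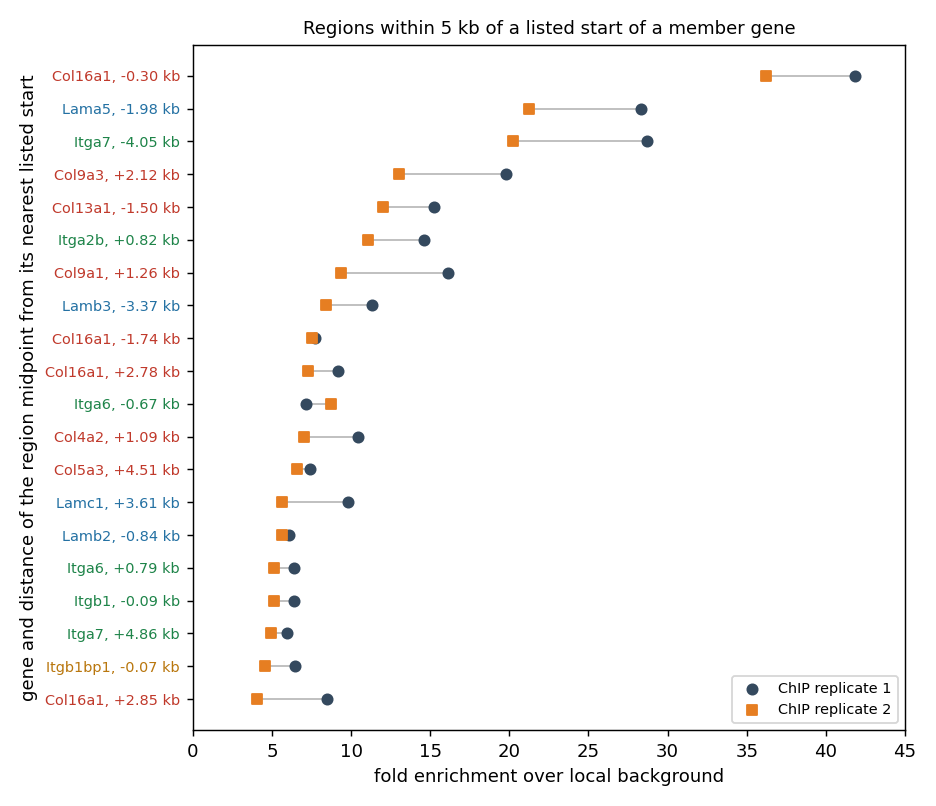
Fold enrichment (horizontal) in both ChIP libraries of the 20 regions within 5 kb of a listed start of a collagen (red), laminin (blue), integrin subunit (green) or integrin-binding (brown) gene, with the distance of the midpoint from that start (negative: upstream). The strongest regions of Col16a1, Lama5 and Itga7 lie above 20-fold in both libraries, and those at the starts of Itgb1 and Itgb1bp1 between 4.59 and 6.44-fold.

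Some of the listed starts near these regions were not the outer start of the gene. For 9 of the 20 regions within 5 kb of a listed start, in 15 genes, that start was over 1 kb inside the outer start of the gene. For 1 the listed start was farther upstream, and for 10 it was within 1 kb of the outer start, as defined above. The regions themselves lay up to 5 kb from these listed starts. How often a listed start is internal was not counted over all regions, so these counts cannot be called particular to the families. With distances taken from the outer start, which needs a known strand, 10 of 86 genes had a region within 5 kb. The share of all protein-coding genes within 5 kb of the outer start was not counted, so that count has no comparison. Within 1 kb there were 4 genes, Itgb1, Itgb1bp1, Itga6 and Lamb2. Those 4 are 5.33% of the 75 genes of known strand, where 11.6% of protein-coding genes of known strand had a region there. The strongest of the 4 had 6.44-fold enrichment in replicate 1 and the strongest in replicate 2 had 5.61-fold.

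Counts from the full peak lists were likewise below those of all protein-coding genes at the outer start, without a test. A replicate 1 summit lay within 1 kb of the outer start in 16 of 75 genes (21.3%), where 35.8% of protein-coding genes had one, and a replicate 2 summit in 8 of 75 (10.7%), where 22.4% had one. All 8 had summits of both libraries there (10.7%, where 21.3% had both). They were Itgb1, Itgb1bp1 and Lamb2 from the region table, and 5 that are not in it at that place. Those 5 had peaks of 8.10-fold and 4.37-fold in Col16a1, 6.47-fold and 3.97-fold in Itgb8, 4.58-fold and 2.92-fold in Itga1, where the summits lay 253 bp upstream and 309 bp downstream, 4.37-fold and 3.84-fold in Col26a1, and 4.17-fold and 2.72-fold in Itgb3bp. Itgb8 encodes a beta subunit that, with alphav, activates TGF-beta. Within 5 kb of either end of the gene, 41 of 86 genes (47.7%) had a replicate 1 summit, where 49.8% of protein-coding genes did, and 30 (34.9%) had a replicate 2 summit, where 34.8% did. Inside the gene the counts were 54 (62.8%), where 41.8% did, and 48 (55.8%), where 30.6% did. A region midpoint lay within 5 kb of either end of 13 genes (15.1%), where 19.3% of protein-coding genes had one.

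Of the 89 regions, 53 were nearest to a listed start of a member gene and 36 to a start of another gene. Of the 36, 15 lay within 1 kb of that other start. Counting a region for its nearest start only, 13 genes had a region within 5 kb, without Itgb1bp1 and Col5a3. Of the 37 genes with no listed region, 22 had no peak summit inside the gene in either library. A further 9 had summits in both libraries, which were Col2a1, Col24a1, Itga8, Itgae, Itgav, Itgb3, Itgb8, Lama1 and Lama2, named after their values were seen. The counts by nearest start and those over genes with no listed region were not made for other genes. They have no comparison and cannot be called particular to the families.

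Other genes of the matrix and of cell adhesion were set beside the families, without a test of the difference. This list was chosen with earlier results of these data known, so its shares cannot serve as an independent comparison. It also holds signalling genes such as Src, Fyn and Tgfb2. A region lay within 5 kb of a start in 15 of 86 genes of the families (17.4%), in 31 of 82 genes of this list (37.8%) and in 18.1% of protein-coding genes. Within 1 kb it was 6 of 86 (6.98%), 12 of 82 (14.6%) and 12.8%. The median of the strongest lower fold within 5 kb was 8.45 over the 15 genes of the families, 7.50 over the 31 genes of the list and 7.94 over all protein-coding genes with such a region. The strongest of the list was Mmp14, a membrane-bound protease that cleaves collagen, with 29.9-fold and 27.1-fold enrichment 4.71 kb upstream, although that region lies 15 bp upstream of Mrpl52. Sparcl1, a matrix protein of astrocytes, had 27.0-fold and 16.0-fold 3.59 kb downstream of its start, nearer to Gm26703 at 1.28 kb. Cspg4, the NG2 proteoglycan that marks progenitors, had 20.2-fold and 13.6-fold 3.29 kb downstream of its start. Tgfb2 had 24.1-fold and 12.1-fold, Adamts1, a protease that cleaves proteoglycans, had 17.3-fold and 11.0-fold 254 bp upstream, and Spp1, the integrin ligand osteopontin, had 22.3-fold and 11.0-fold 2.12 kb upstream. Plec, which anchors intermediate filaments, had 19.2-fold and 9.86-fold, and Thbs1, a ligand of integrins, had 16.8-fold and 9.67-fold 1.15 kb upstream in a region nearer to Gm13986, at 362 bp. Ddr1, a collagen receptor kinase, had 15.7-fold and 9.51-fold 18 bp upstream of a start, and Fbln2 had 12.2-fold and 8.70-fold.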

How the data were processed

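Each of the 2 ChIP libraries has 1 peak list, made with CASAVA 1.8, Bowtie2 and MACS2 on build GRCm38.p3, as the submitters' processing notes say without options. In the lists deposited by the authors, pileup is a coverage signal, the fragments stacked over a summit, and fold enrichment is a ratio to local background, per the file headers. The -log10 p and -log10 q stand in deposited columns with damaged headers and are named from their values. The deposited region table gives under its adjusted p-value header what its title names an irreproducible discovery rate (IDR), at most 0.05. Its columns headed fold and pileup are identical in all 12925 regions and hold a mean -log10 p, so they were not used. The position headed abs_summit is the region's midpoint.

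Regions and peaks were joined by an overlap of at least 1 bp in Python 3.11.15 (pandas 2.3.3, numpy 2.4.6, scipy 1.17.1), and plots were drawn with matplotlib 3.10.9. Starts are those of the Ensembl transcripts that the region table lists. Gene lengths, ends and the 21887 protein-coding genes came from a RefSeq table of GRCm38.p6, a later patch of that build, and strand, known for 75 of the 86 genes, from the authors' table or RefSeq promoters. Positions are 1-based. The joining of peaks to regions and the distances to starts were tested on simulated data, and the other steps were not.

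The genes and lists were chosen with earlier results of these data known. Named were all genes whose start has a region within 5 kb, the 10 strongest regions farther away and the 10 strongest of the matrix list. Others, and the comparison of outer starts, gene lengths and promoters of neighbours, were chosen after the values were seen. The subfamilies were set by hand from textbook classes. Library depth is unknown, since read numbers are not given here, so fold enrichments carry no interval. Values of 1 laminin gene, and of the strongest of the 3 regions that name Lamc1, are not reported here, although the counts and medians include them.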

Additional observations from a re-analysis of the deposited data

How the results depend on the processing

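Over 43 alternatives of 5 results, 25 moved by no more than 1.5 times, or for the median fold by less than 2.00, the standard deviation of the library medians. No count or median changed with the summit of the replicate 1 peak in place of the midpoint or with an overlap of 50%, and 89 regions remained when collagen names were matched at their start. The number of regions and the median fold do not depend on the position used. The summit could therefore not have changed them, although they count among the 25. An IDR of 0.01 or below left 68 regions, 14 genes within 5 kb and a median lower fold of 9.36. A -log10 q of 10 or more in both libraries left 4 regions within 1 kb of a start in place of 7 and raised the median to 9.80. Counting the nearest start only left 53 regions. A window of 1 kb gave 6 member genes and 12 matrix genes, and 25 kb gave 37 and 50. Within 500 bp of a start lay 3 regions. The higher of both folds had a median of 10.3. Leaving out a library, so that its partner's peaks stood in for regions, gave 181 to 275 peaks near the genes and 28 to 37 member genes. It also gave 16 to 30 peaks within 1 kb of a start and 49 to 59 matrix genes. These counts include peaks that are not reproducible. They also add the outer start of each gene to the listed starts, or both ends of the gene where the strand is unknown. A peak was near a gene if it lay within 25 kb of such a start or inside the gene. They are therefore not like for like with the main counts. The median fold was still taken over the same 89 regions, with the values of the remaining library, and was 7.50 to 10.3.

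No paired analysis was possible because the results come from no test and both ChIP libraries belong to 1 condition. Read depth is unknown, and replicate 2 has fewer peaks, 26537 against 42131.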
